A study of Mus musculus with 8 samples.

Results

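The genes described here encode centromere proteins (Cenp), kinesins (Kif) and centrosomal proteins (Cep). Members were the protein-coding genes of GENCODE whose symbol begins with Cenp and a letter, or with Kif or Cep and a digit, with Kif7 left out. This gave 95 of 21951 protein-coding genes, of which 21 were Cenp, 38 Kif and 36 Cep genes. The symbol alone decides, so Kif1bp, which encodes a kinesin-binding protein and no motor, and Cenpj, whose product builds centrioles, are among them. All peaks whose midpoint lay in the span of a member on its own strand were taken, 195 of 17068.

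The peaks come from E14 mouse embryonic stem cells, a single line grown in serum with LIF, for which the labels name no genotype change or treatment. RNA bound to chromatin, a fraction rich in transcripts that are not yet spliced, was precipitated with an antibody against m6A (N6-methyladenosine), adenosine that carries a methyl group. An antibody of Synaptic Systems (SySy) and one of Abcam were used, and the 8 libraries form 4 groups of 2 replicates, the precipitate and the input of each antibody. The study's methods name a different library kit for each antibody, whereas the labels name the same kit for all libraries. Antibody and kit therefore cannot be told apart where lists are compared. The authors sorted peaks into confidence groups. Cfg1 is their high-confidence group (5277 peaks, called with both antibodies). Cfg2 is of medium confidence (5472 peaks, called with SySy while the Abcam signal stayed under the threshold). Cfg3 is of low confidence (6319 peaks, called with Abcam alone and with almost no SySy signal). Peaks of Cfg1 and Cfg2 together are called SySy-called below. The lists give positions only. They hold no height, no depth and no value per library, so no error between replicates could be given, and intervals and p-values cover counting error of the lists only. Whether a gene without a peak was weakly expressed or unmethylated cannot be told apart, because the lists give no expression. Of 12 pluripotency genes, 10 carried a SySy-called peak, against 19.7% of all protein-coding genes. Pou5f1, Sox2 and Nanog were among them, while Lin28a and Dppa3 had none. Without expression levels this cannot check the cell type.

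Centromeres carry nucleosomes with the histone variant CENP-A, on which an inner network of Cenp proteins sits through the cell cycle and an outer kinetochore that grips microtubules is built at mitosis. Centrosomes consist of a pair of centrioles in a cloud of pericentriolar proteins, duplicate once per cycle and organise the spindle and the cilium, and many Cep proteins are long coiled-coil scaffolds. Kinesins are microtubule motors that carry cargo, or shape the spindle and the cleavage furrow. Stem cells of the early embryo divide fast and transcribe much of this machinery. In messenger RNA, m6A is known from long exons, from the surroundings of stop codons and from a consensus in which GGACT is the most used form.

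The sequences below show what the called regions look like. They are the coding Cfg1 peaks of 3 genes that had 5 such peaks each, Cep152, Cep250 and Cep350, together with the run of 3 Cfg2 peaks that crosses the end of exon 18 of Kif23. All are on mouse GRCm38 (mm10), 5′ to 3′ on the strand of the gene, with every GGAC and its next base in capitals.
Cep152 exon 21, chr2:125579637-125579850 (minus): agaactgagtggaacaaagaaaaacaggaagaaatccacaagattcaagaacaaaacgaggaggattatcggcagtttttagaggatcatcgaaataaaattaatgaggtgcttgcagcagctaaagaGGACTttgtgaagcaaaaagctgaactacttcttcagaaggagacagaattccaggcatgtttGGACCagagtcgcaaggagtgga
Cep152 exon 21, chr2:125579423-125579635 (minus): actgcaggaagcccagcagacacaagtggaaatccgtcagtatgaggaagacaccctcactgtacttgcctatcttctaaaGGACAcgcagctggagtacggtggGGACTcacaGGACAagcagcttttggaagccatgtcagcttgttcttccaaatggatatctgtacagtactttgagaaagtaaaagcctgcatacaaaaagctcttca
Cep152 exon 28, chr2:125563773-125563961 (minus): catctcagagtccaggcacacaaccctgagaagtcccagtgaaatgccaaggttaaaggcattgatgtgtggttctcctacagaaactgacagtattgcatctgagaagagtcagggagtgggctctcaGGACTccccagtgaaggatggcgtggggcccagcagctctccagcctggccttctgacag
Cep152 exon 28, chr2:125563618-125563771 (minus): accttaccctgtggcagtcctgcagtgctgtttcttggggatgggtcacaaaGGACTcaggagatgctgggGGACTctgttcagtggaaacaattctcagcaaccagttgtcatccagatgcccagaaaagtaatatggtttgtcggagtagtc
Cep152 exon 28, chr2:125563402-125563616 (minus): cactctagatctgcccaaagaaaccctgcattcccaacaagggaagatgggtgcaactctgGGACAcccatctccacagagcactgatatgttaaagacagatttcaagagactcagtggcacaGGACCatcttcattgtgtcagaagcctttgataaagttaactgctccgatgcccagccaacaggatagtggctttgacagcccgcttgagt
Cep250 exon 28, chr2:155990431-155990608 (plus): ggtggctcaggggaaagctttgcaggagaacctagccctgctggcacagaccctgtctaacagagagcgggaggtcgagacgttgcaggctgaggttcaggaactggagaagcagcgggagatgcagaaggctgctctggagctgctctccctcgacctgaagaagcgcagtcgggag
Cep250 exon 28, chr2:155990806-155991010 (plus): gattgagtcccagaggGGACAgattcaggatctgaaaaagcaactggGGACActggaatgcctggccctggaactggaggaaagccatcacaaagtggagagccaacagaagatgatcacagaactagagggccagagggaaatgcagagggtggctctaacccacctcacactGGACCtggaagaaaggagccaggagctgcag
Cep250 exon 28, chr2:155991533-155991782 (plus): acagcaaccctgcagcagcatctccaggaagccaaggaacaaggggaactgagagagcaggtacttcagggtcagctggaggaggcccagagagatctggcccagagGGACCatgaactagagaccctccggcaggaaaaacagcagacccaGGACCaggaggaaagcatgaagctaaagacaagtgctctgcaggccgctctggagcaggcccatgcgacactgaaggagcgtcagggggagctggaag
Cep250 exon 28, chr2:155991829-155992078 (plus): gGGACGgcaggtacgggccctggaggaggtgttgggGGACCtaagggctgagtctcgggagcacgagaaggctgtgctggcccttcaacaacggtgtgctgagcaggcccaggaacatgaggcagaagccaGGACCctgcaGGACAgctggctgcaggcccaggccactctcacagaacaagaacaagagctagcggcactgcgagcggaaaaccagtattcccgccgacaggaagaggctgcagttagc
Cep250 exon 28, chr2:155992500-155992723 (plus): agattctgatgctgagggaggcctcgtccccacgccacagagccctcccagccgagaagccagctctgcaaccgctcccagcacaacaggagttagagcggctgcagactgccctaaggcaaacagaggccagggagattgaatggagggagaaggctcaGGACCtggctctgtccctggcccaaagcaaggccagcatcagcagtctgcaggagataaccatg
Cep350 exon 6, chr1:155953359-155953582 (minus): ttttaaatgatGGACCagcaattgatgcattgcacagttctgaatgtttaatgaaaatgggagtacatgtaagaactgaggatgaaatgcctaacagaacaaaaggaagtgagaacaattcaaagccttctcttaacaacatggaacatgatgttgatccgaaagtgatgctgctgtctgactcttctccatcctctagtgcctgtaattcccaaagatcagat
Cep350 exon 6, chr1:155953183-155953357 (minus): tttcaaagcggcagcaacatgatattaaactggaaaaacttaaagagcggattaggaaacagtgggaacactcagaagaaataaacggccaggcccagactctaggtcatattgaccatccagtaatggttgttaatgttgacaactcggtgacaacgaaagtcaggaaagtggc
Cep350 exon 10, chr1:155933181-155933283 (minus): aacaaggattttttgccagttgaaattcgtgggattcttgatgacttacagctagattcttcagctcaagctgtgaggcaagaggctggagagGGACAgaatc
Cep350 exon 12, chr1:155928658-155928907 (minus): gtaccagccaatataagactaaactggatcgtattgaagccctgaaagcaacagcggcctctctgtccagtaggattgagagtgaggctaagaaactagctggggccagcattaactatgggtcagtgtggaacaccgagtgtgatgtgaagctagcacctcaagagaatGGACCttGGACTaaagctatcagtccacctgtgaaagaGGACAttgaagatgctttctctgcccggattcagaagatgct
Cep350 exon 34, chr1:155862422-155862558 (minus): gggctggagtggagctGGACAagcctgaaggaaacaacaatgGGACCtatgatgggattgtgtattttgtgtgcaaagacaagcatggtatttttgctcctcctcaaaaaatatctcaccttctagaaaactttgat
Kif23 exon 18, chr9:61923933-61924017 (minus): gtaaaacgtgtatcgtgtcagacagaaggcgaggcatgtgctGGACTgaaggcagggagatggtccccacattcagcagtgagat
Kif23 intron 18, chr9:61923863-61923931 (minus): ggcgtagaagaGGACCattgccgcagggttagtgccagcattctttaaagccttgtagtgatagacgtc
Kif23 intron 18, chr9:61923774-61923861 (minus): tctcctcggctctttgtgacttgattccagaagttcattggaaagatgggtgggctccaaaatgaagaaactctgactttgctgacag
The 5 peaks of Cep152, which encodes the receptor that brings the kinase Plk4 to the mother centriole, held 5 GGACT and 10 GGAC in all. The 5 peaks of Cep250 held no GGACT, although 4 of them had GGAC followed by another base, 10 times in all. Among the 5 coding peaks of Cep350, 1 had GGACT. So genes with the same number of coding Cfg1 peaks differed in how often GGACT occurred within the intervals. Which base in an interval is methylated is not known. GGACT, searched on the strand of the gene, was in 30.5% of the SySy-called exonic and intronic peaks of all members (36 of 118) and in 34.9% of those of other coding genes (3304 of 9464).

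A peak of any list was found in 52 of the 95 members (54.7%), against 25.1% of all protein-coding genes. Cfg1 peaks were in 30 members (31.6%, background 12.1%), Cfg2 peaks in 28 (29.5%, background 13.7%) and Cfg3 peaks in 37 (38.9%, background 13.3%). A SySy-called peak was present in 43 members (45.3%, 95% Wilson interval 35.6% to 55.3%), with a background of 19.7%. Cfg3 peaks without any SySy-called peak marked 9 members (9.47%, background 5.46%). The Cep genes had the highest share with a SySy-called peak (21 of 36, 58.3%), followed by Kif (15 of 38, 39.5%) and Cenp genes (7 of 21, 33.3%). The Wilson intervals of these shares overlap, from 42.2% to 72.9% in Cep, 25.6% to 55.3% in Kif and 17.2% to 54.6% in Cenp genes.

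The members are long genes, and length went with the presence of peaks. Their median coding sequence was 2568 nt, against 1170 nt in the other coding genes. Of 18 members with coding sequences over 5000 nt, 15 had a SySy-called peak (83.3%), against 48.2% of other coding genes of that class. Over 3000 and up to 5000 nt the shares were 45.0% and 39.3%, and over 1500 and up to 3000 nt they were 32.4% and 28.9%. Up to 1500 nt they were 35.0% (7 of 20 members) and 11.9%. The gap between members and other genes thus lay mainly at the 2 ends of the length range. These shares are a description, with no test, and expression was not known in either group.

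Peaks were uneven among members. The 10 members with most SySy-called peaks held 62 of 121 of them (51.2%), and the first 5 held 39 (32.2%). Summits that lie close together had been split by the authors into neighbouring intervals: the 121 SySy-called peaks derive from 85 called regions. Peaks of 1 region share reads and are not independent.

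**Figure D1:**
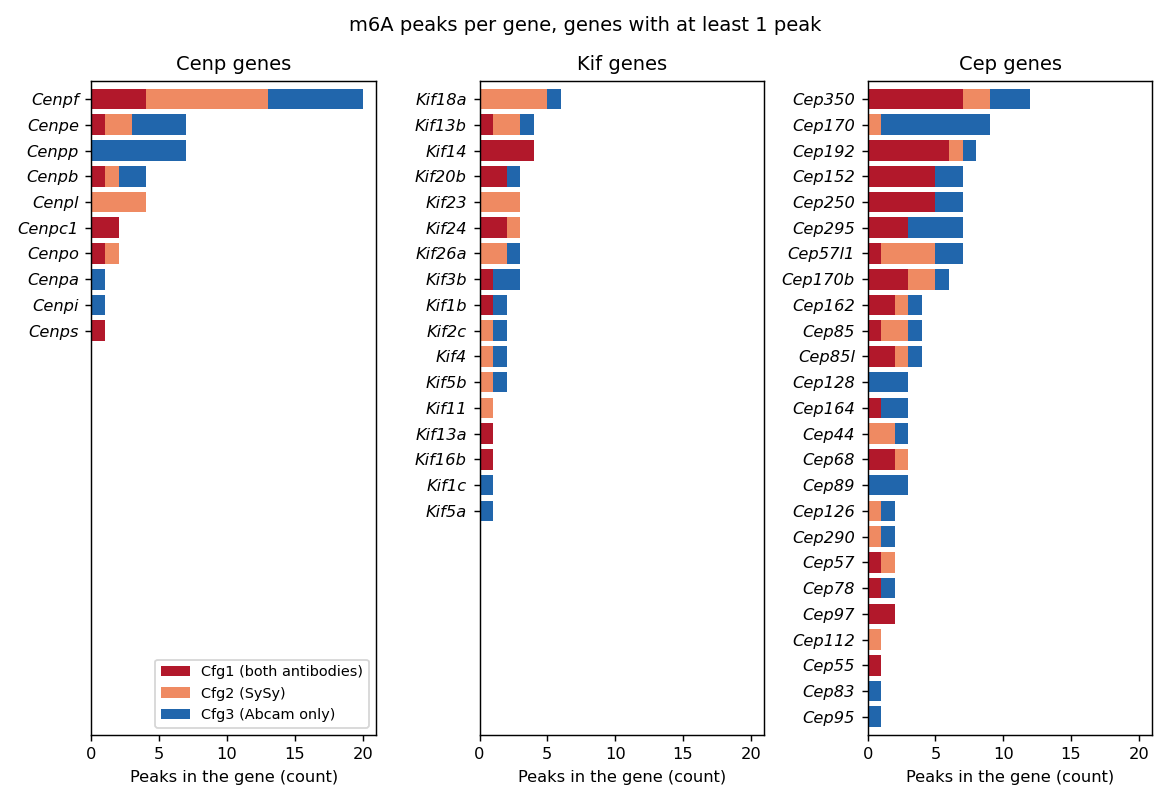
Number of m6A peaks (x axis, count) in each Cenp, Kif and Cep gene with at least 1 peak (y axis), stacked by list: Cfg1 in dark red, Cfg2 in orange, Cfg3 in blue. Cenpf leads with 20 peaks and Cep350 follows with 12, Cep170 and Cenpp consist mostly or wholly of Cfg3 peaks, and Kif14 has Cfg1 peaks alone.

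Among Cenp genes, Cenpf and Cenpe, which work at the outer kinetochore, held 16 of 27 SySy-called peaks. Cenpf, a large coiled-coil protein that joins the kinetochore and the nuclear envelope late in the cell cycle (chr1:189640606-189688086, minus strand, 18 exons), had 4 Cfg1, 9 Cfg2 and 7 Cfg3 peaks. All 20 were in coding sequence. Exon 12 (3428 nt) held 1 Cfg1, 4 Cfg2 and 3 Cfg3 peaks, and exon 13 (2832 nt) held 2 Cfg1, 4 Cfg2 and 2 Cfg3 peaks. The remaining SySy-called peaks, a Cfg1 and a Cfg2 peak at codons 2798 and 2745 of 2997, were in exon 16 (477 nt), and 2 Cfg3 peaks were in exon 7 (203 nt). The Cfg1 peaks of Cenpf were at chr1:189657590-189657776 in exon 12, chr1:189654123-189654355 and chr1:189653810-189654059 in exon 13, and chr1:189648774-189648887 in exon 16. The SySy-called peaks ran from codon 1317 to codon 2798 and derive from 6 called regions, whereas Cfg3 peaks began at codon 286. The 13 SySy-called peaks held 2 GGACT and 10 GGAC.

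Cenpe, the kinesin motor of the kinetochore that moves chromosomes to the spindle equator, has no exon over 1000 nt among its 46. It nevertheless had 1 Cfg1 peak (chr3:135259156-135259321, exon 39, 195 nt), Cfg2 peaks in exon 40 (204 nt) and exon 45 (287 nt), and 4 Cfg3 peaks. Its Cfg1 peak was the SySy-called peak with the shortest exon of all members. The Cfg3 peaks were in exons 26 (159 nt), 27 (291 nt) and 36 (261 nt) and in intron 34. In contrast with Cenpf, all 6 exonic peaks of Cenpe were in exons under 400 nt.

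Cenpb, which binds a short box in satellite DNA, has a single exon of 4886 nt. A Cfg2 peak was at codon 294 of 599, Cfg3 peaks at codons 438 and 501, and a Cfg1 peak (midpoint 23 nt past the last coding base) at the stop codon. All 4 also lay in the annotated span of Spef1 on the same strand, so the gene they belong to is uncertain.

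In the constitutive network that stays on the centromere, 4 of its 15 genes carried a SySy-called peak (26.7%, Wilson interval 10.9% to 52.0%), a share whose interval includes the background of 19.7%. Cenpl, a partner of Cenpn in the network (chr1:161070713-161086724, plus strand), had 4 Cfg2 peaks and no others. They were spread over the transcript of 6 exons, in the 5′ untranslated region (5′UTR), exon 4 at codon 104, exon 5 at codon 217 of 345, and 35 nt past the last coding base. Cenpc1, which links CENP-A nucleosomes to the outer kinetochore, had 2 neighbouring Cfg1 peaks in exon 8 (602 nt). Cenpo had a Cfg1 peak 117 nt past its last coding base in the last exon (2964 nt) and a Cfg2 peak downstream of its representative transcript. Cenps, which also works in DNA repair, had 1 Cfg1 peak, 198 nt past its last coding base. Cenpa itself had a Cfg3 peak in intron 1 that is exonic in a retained-intron transcript. Cenpi had a Cfg3 peak in intron 7 with 7 GGACT, of which 84.0% was in soft-masked repeat.

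The 7 peaks of Cenpp, a further network gene (chr13:49464023-49652785, minus strand), were Cfg3 peaks in intron 5, which is 161496 nt long. They lay 27441 to 34145 nt downstream of the 5′ end of the intron, and 95% to 100% of each interval was repeat-masked in the reference. None held GGACT, and the gene had no peak in an exon. No peak of any list was found in Cenph, Cenpj, Cenpk, Cenpm, Cenpn, Cenpq, Cenpt, Cenpu, Cenpv, Cenpw and Cenpx.

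Cep350, which anchors microtubules at the centriole (chr1:155844964-155973255, minus strand, 38 exons), had the most Cfg1 peaks of all members, 7, beside 2 Cfg2 and 3 Cfg3 peaks. Coding Cfg1 peaks were in exons 6 (2 peaks, 614 nt), 10 (662 nt), 12 (1061 nt) and 34 (1964 nt), at the positions given with their sequences. The other Cfg1 peaks, chr1:155848264-155848466 and chr1:155847197-155847446, were in the 3′UTR of the last exon (3764 nt), 201 and 1245 nt past the last coding base. Both Cfg2 peaks were there too, at 381 and 1689 nt. Exons of Cep350 at 4 separate places along the coding sequence thus carried peaks of both antibodies.

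Of the 9 centriole duplication genes, 5 carried a SySy-called peak (55.6%, Wilson interval 26.7% to 81.1%), with a background of 19.7%. These 5 held 17 Cfg1 and 3 Cfg2 peaks, many split from shared called regions. Cfg1 peaks were 54.5% of the SySy-called peaks of all members and 49.7% of those of other coding genes, and the group, set after the values were seen, was not tested. Cep192, a scaffold that recruits Plk4 and pericentriolar material (chr18:67800107-67885170, plus strand, 46 exons), had 6 Cfg1 peaks, 2 in exon 17 (823 nt, chr18:67834701-67834826 and chr18:67834828-67834969) and 4 adjoining ones in exon 20 (877 nt). The 4 of exon 20 ran without a gap of more than a base from position 67841195 to 67841858. A Cfg2 peak (chr18:67843064-67843168) had its midpoint in intron 20, 1256 nt into its 1275 nt, so that it reached into exon 21. A single Cfg3 peak was in intron 14. No other exon of Cep192 held the midpoint of a peak.

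In Cep152 (chr2:125563088-125625113, minus strand, 28 exons), 2 Cfg1 peaks were in exon 21 (651 nt) and 3 in the last exon (1310 nt), at codons 1582, 1639 and 1701 of 1736. Cep152 had no Cfg2 peak, and its 2 Cfg3 peaks were elsewhere, in exon 18 (144 nt) and intron 23. Cep295, needed to turn centrioles into centrosomes (chr9:15316915-15357788, minus strand), had a Cfg1 peak in exon 15 (3370 nt, chr9:15334414-15334589) and a pair in exon 24 (584 nt, chr9:15322718-15322865 and chr9:15322580-15322716). Its 4 Cfg3 peaks were in exons 3 and 15 and introns 10 and 19. The intron 19 peak lay in the span of Gm24339, an annotated gene on the same strand, so its gene is uncertain. Cep97, which caps the centriole with Ccp110, had Cfg1 peaks in exon 9 (775 nt) and in exon 11 (5982 nt), where the midpoint was 332 nt before the last coding base. Cep85 had a Cfg2 peak in exon 4 (695 nt), a Cfg1 and a Cfg2 peak at its stop codon and a Cfg3 peak in intron 11. Cep63, Cep76, Cep120 and Cep135, the remaining genes of this group, had no peak.

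Cep250, the protein that ties the 2 centrioles together (chr2:155956458-155998900, plus strand, 33 exons), had all 5 of its Cfg1 peaks in exon 28, its longest exon (2559 nt). The peaks spanned codons 1455 to 2152 of 2435. Its 2 Cfg3 peaks were in exon 5 (166 nt) and in intron 28, 521 nt from the 5′ splice site, where the interval held 4 GGACT. All 5 Cfg1 peaks lay under an annotated gene on the opposite strand, 6430550D23Rik. The authors set the strand of a peak by the side with stronger enrichment. Cep68, of the same linker, had 2 Cfg1 peaks in exon 3 (1503 nt, chr11:20239475-20239614 and chr11:20239271-20239473) and a Cfg2 peak in intron 3 (chr11:20238559-20238711, 607 nt) that is in the 3′UTR of another transcript.

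A paralogous pair differed in which antibody called its peaks. Cep170, of the subdistal appendages (chr1:176733653-176814067, minus strand, 1588 codons), had no Cfg1 peak, 1 Cfg2 and 8 Cfg3 peaks. Cep170b (chr12:112720455-112746592, plus strand, 1574 codons) had 3 Cfg1, 2 Cfg2 and 1 Cfg3 peak. Both genes have 19 exons, and in both exon 12 is the peak-rich one. The other 2 peaks of Cep170, both Cfg3, were in exon 7 and outside the representative transcript. Exon 12 of Cep170 is 1818 nt and held 6 Cfg3 peaks and the Cfg2 peak, at codons 716 to 1168. In Cep170b it is 1671 nt and held 2 Cfg1 peaks (chr12:112738490-112738682 and chr12:112738770-112738987) and a Cfg2 peak, at codons 926 to 1132. Its remaining Cfg1 peak (chr12:112736361-112736499) and a Cfg2 peak were in exon 9 (713 nt). The Cfg3 peak of Cep170b was in intron 13, and the exon 12 peaks of Cep170 lay under Gm36992, annotated on the opposite strand. The SySy-called peaks of Cep170b held 5 GGACT and 10 GGAC, while the single one of Cep170 held neither. This contrast of 2 genes was chosen after the values were seen and was not tested.

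Of the other appendage genes, Cep164 had a Cfg1 and a Cfg3 peak past the end of its longest coding transcript, in the 3′UTR of 2 other coding transcripts, and a Cfg3 peak in its last coding exon. Cep128 had 2 Cfg3 peaks in exon 16 (651 nt) and 1 in intron 20. Cep89 had 3 Cfg3 peaks, in introns 5, 6 and 11, and Cep83 had 1, in exon 10 (150 nt). Cep128, Cep89 and Cep83 had no SySy-called peak.

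Cep57l1, a paralogue of the pericentriolar gene Cep57 (chr10:41718840-41809871, minus strand, 12 exons), had 5 of 7 peaks in intron 1 (28022 nt). A Cfg1 peak (chr10:41799946-41800078) adjoined 2 Cfg2 peaks (chr10:41800080-41800280 and chr10:41800282-41800451), with midpoints 9207 to 9561 nt into the intron and in no annotated exon. Of these 3 intervals 12.4% to 41.2% was repeat-masked, and whether they are endogenous retroviral sequence was not tested. Upstream, 2 Cfg3 peaks at 7646 and 7748 nt were exonic in a noncoding transcript of the gene. The remaining 2, both Cfg2, were at 1 and 211 nt past the last coding base. Cep57 itself had a Cfg1 and a Cfg2 peak at 21 and 145 nt past its last coding base and none in introns. So both paralogues had SySy-called peaks at the stop codon, and Cep57l1 alone of the pair had intronic ones.

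Other Cep genes had 4 peaks or fewer. Cep162 had a Cfg1 and a Cfg3 peak in exon 23 (644 nt) and a Cfg1 and a Cfg2 peak 34 and 174 nt past the last coding base. Cep85l had 2 Cfg1 and 1 Cfg3 peak in exon 3 (788 nt) and a Cfg2 peak in the last exon. Cep78 had a Cfg1 peak in its last exon and a Cfg3 peak in intron 13, and Cep290, a large gene of the ciliary transition zone with 54 exons, had a Cfg2 peak 38 nt before its last coding base and a Cfg3 peak in intron 49. Cep126 had a Cfg2 and a Cfg3 peak in exon 6 (2110 nt). Cep55, which acts at abscission, had a Cfg1 peak in exon 4, of only 276 nt. Cep112 had 1 Cfg2 peak (chr11:108578538-108578706) in intron 18, wholly within a masked repeat. Cep44 had 2 adjoining Cfg2 peaks, 1 in the 5′UTR of its first exon and 1 upstream of it in the first exon of another transcript, and a Cfg3 peak in intron 8, and Cep95 had 1 Cfg3 peak in exon 11 (154 nt). No peak was found in Cep19, Cep41, Cep70, Cep72, Cep131 and Cep295nl.

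**Figure D2:**
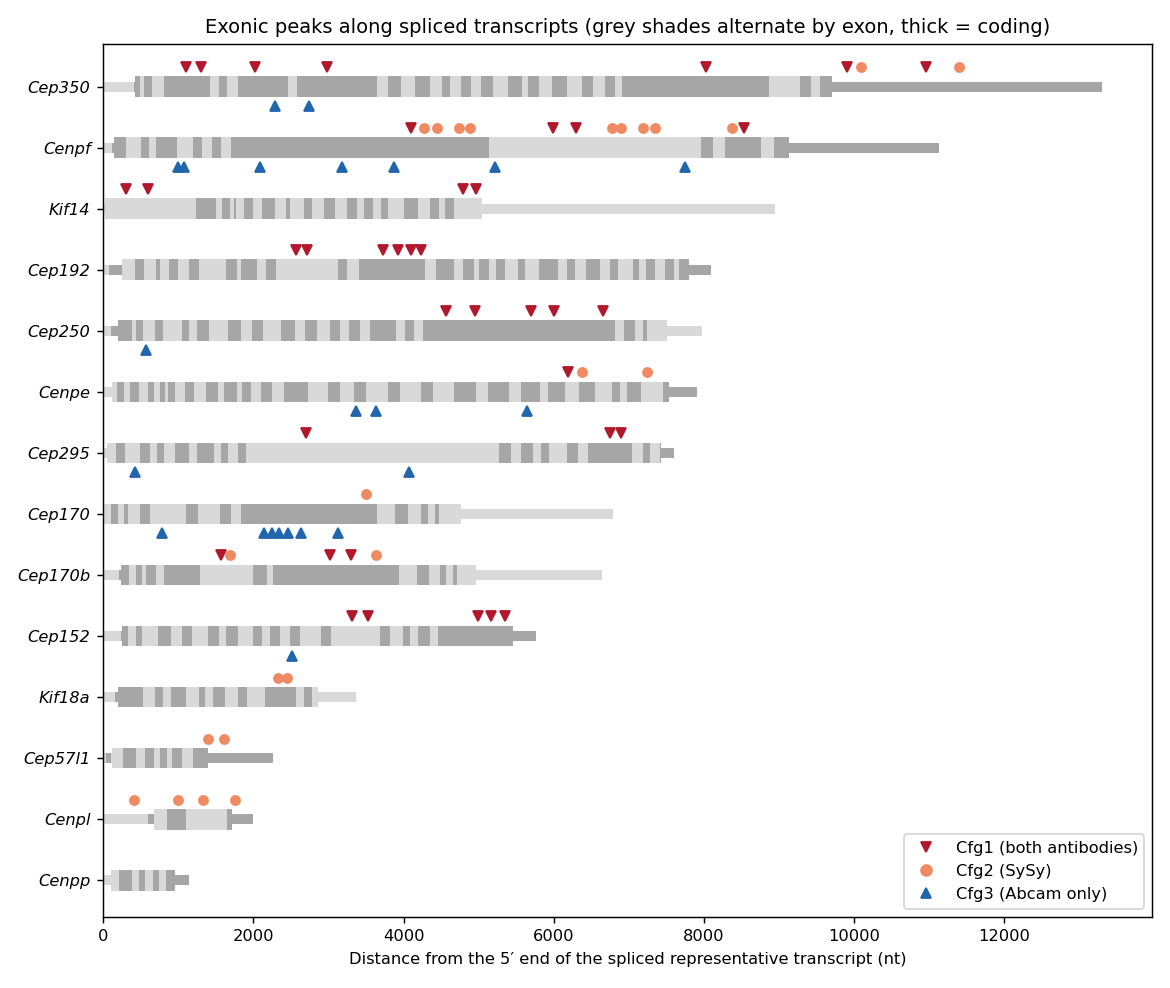
Exonic peaks along the spliced representative transcript of the 14 members with at least 4 SySy-called or at least 4 Cfg3 peaks; the x axis is the distance from the transcript's 5′ end in nt, grey shades alternate from exon to exon, and thick boxes are coding. Cfg1 (red triangles) and Cfg2 (orange circles) are drawn above and Cfg3 (blue triangles) below each transcript; peaks gather on the long exons, such as exons 12 and 13 of Cenpf and exon 28 of Cep250, and Cenpp has none.

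Among mitotic kinesins, 7 of 13 carried a SySy-called peak (53.8%), and among the other Kif genes 8 of 25 (32.0%), beside 19.7% of all protein-coding genes. The Wilson intervals overlap, from 29.1% to 76.8% and from 17.2% to 51.6%. Per length of exonic sequence the mitotic group had 2.28 SySy-called exonic peaks per 10 kb and the others 0.763. The role groups of Cenp and Cep genes had 2.18 (appendages and centriole linker) to 5.77 (Cenp genes outside the constitutive network). Other coding genes had 8649 such peaks in 67616945 exonic nt. These role groups were set after the values were seen, and the contrast between the Kif groups was not tested. Kif14, which works with the central spindle in cytokinesis (chr1:136466343-136531511, plus strand, 29 exons), had 4 Cfg1 peaks and no others. They stood at both ends of the coding sequence, at codons 94 and 191 in exon 1 (1240 nt, chr1:136468114-136468363 and chr1:136468406-136468655) and at codons 1588 and 1648 of 1674 in the last exon (4266 nt, chr1:136527275-136527433 and chr1:136527435-136527635). No peak was found in the 27 exons between them.

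Kif18a, which damps chromosome movements at the metaphase plate (chr2:109280738-109341747, plus strand, 17 exons), had 5 Cfg2 peaks and 1 Cfg3 peak. In exon 14 (412 nt), 2 adjoining Cfg2 peaks were at codons 709 and 748 of 886. The other 3 Cfg2 peaks, chr2:109312400-109312479, chr2:109312481-109312658 and chr2:109313990-109314239, were in intron 12 (7206 nt), with midpoints 1771, 1901 and 3446 nt into the intron. The Cfg3 peak stood between them at 2907 nt. Of each of these 4 intronic intervals 96.1% to 100% was repeat-masked, and 3 of the 4 held GGACT. Neither exonic peak of Kif18a overlapped a masked base.

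Kif23, a motor of the centralspindlin complex (chr9:61915905-61946774, minus strand, 23 exons), had 3 adjoining Cfg2 peaks from 1 called region and no other peak. The first was in exon 18 (312 nt, codon 771 of 953), and the next pair had midpoints 8 and 88 nt into intron 18 (2658 nt). The 5′ splice site there reads aggGTTAGT, with the intronic bases in capitals, and lies inside the middle peak. An annotated retained-intron transcript of Kif23 is exonic over both intronic peaks. Kif23 was the member whose SySy-called intronic peaks came closest to a 5′ splice site.

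Of the remaining mitotic kinesins, 4 had 1 to 3 peaks. Kif20b, of cytokinesis, had 2 Cfg1 peaks in exon 19 (1234 nt) and a Cfg3 peak in exon 13 (288 nt). Kif2c, a microtubule depolymerase of the centromere, had a Cfg2 peak in its 3′UTR and a Cfg3 peak in intron 6. Kif4, a chromokinesin, and Kif11, the motor that pushes spindle poles apart, each had a Cfg2 peak in the 5′UTR, with midpoints 551 and 126 nt from the gene start. Kif4 also had a Cfg3 peak in intron 8. No peak was found in Kif2a, Kif2b, Kif15, Kif18b, Kif20a and Kif22.

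Kif24, which trims centriolar microtubules and holds back cilia (chr4:41390745-41464887, minus strand, 13 exons), had a Cfg1 peak (chr4:41394730-41394979) and a Cfg2 peak in exon 11 (2226 nt). A further Cfg1 peak (chr4:41450668-41450824) was 13964 nt into intron 1 (35727 nt), in no annotated exon. None of that interval was repeat-masked, and whether it is endogenous retroviral sequence was not tested. Kif1b, a transport kinesin, had a Cfg1 peak (chr4:149237955-149238168) and a Cfg3 peak in intron 22 of its 49-exon transcript, both of which are coding in the last exon (4750 nt) of a shorter coding transcript with 21 exons. Of the 3 Cfg1 peaks that counted as intronic among all members, that of Kif1b alone was exonic in another transcript. Kif13b had a Cfg1 peak in exon 39 (757 nt), 2 Cfg2 peaks in its 3′UTR and a Cfg3 peak in intron 39, and its paralogue Kif13a had a Cfg1 peak in exon 37 (792 nt). Both coding peaks were in the exon before the last, at codons 1711 of 1847 and 1652 of 1749.

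Kif26a had 2 Cfg2 peaks in exon 12 (2914 nt) and a Cfg3 peak in its 3′UTR. Kif3b, a subunit of the ciliary motor kinesin-2, had 1 Cfg1 and 2 Cfg3 peaks in exon 2 (1468 nt). Kif16b, which moves endosomes, had 1 Cfg1 peak in exon 19 (1344 nt). The conventional kinesin Kif5b had a Cfg2 peak in the 5′UTR and a Cfg3 peak in intron 11, Kif5a had a Cfg3 peak in its 3′UTR and Kif1c one in exon 21 (615 nt). Kif1a, Kif1bp, Kif3a, Kif3c, Kif5c, Kif6, Kif9, Kif12, Kif17, Kif19a, Kif21a, Kif21b, Kif26b, Kif27 and Kif28 had no peak. Kif26b has the longest exon of all members (7121 nt), and the longest exons of Kif21b, Kif3c and Kif5c are 3962, 3706 and 3615 nt, so not every long exon held a peak. Motor domains sit near the start of most kinesins, but domain positions were not available and their overlap with peaks was not tested. With the coding sequence cut into 3 equal parts, 2 of the 17 coding SySy-called peaks of Kif genes were in the part at the start, 7 in the middle part and 8 in the part at the end. In Cep genes the split was 11, 14 and 18, and in Cenp genes 1, 10 and 10, with 13 of the Cenp peaks in Cenpf alone. No split for other coding genes stands beside these counts, and where long exons lie along the coding sequence was not taken into account. The counts therefore do not show whether peaks avoid motor domains.

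Long exons held nearly all exonic SySy-called peaks. Of 105 such peaks of the members, 96 were in exons longer than 400 nt (91.4%, 95% Wilson interval 84.5% to 95.4%), although these exons made up 46.8% of the exonic bases and 7.71% of the exons. By exon, a SySy-called peak was found in 0 of 500 exons of 100 nt or less, in 1 of 997 up to 200 nt, in 8 of 202 up to 400 nt (3.96%), in 24 of 76 up to 1000 nt (31.6%) and in 28 of 66 over 1000 nt (42.4%), each class beginning where the one before it ends. A longer exon offers more bases, so the density was computed too. It was 0.00706, 0.157, 0.783 and 0.385 peaks per kb in the 4 classes above 100 nt, highest in the class from 400 to 1000 nt. Other coding genes had their highest density in the same class (0.262 per kb).

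Exonic Cfg3 peaks were in long exons less often, 27 of 39 (69.2%, 53.6% to 81.4%), a difference of 22.2 percentage points to SySy-called peaks (95% interval of the difference 8.17 to 38.4, Fisher's exact test, two-sided as all tests here, p = 0.0093 after Benjamini-Hochberg adjustment over 8 tests). With 1000 nt as the boundary that difference was 5.86 points and did not pass (adjusted exact p = 0.8). Cfg1 and Cfg2 peaks were in exons over 400 nt in 96.8% and 83.7%. The difference of 13.1 points (1.77 to 26.9) did not pass (adjusted exact p = 0.06). Against other coding genes (95.3%) the members' SySy-called share differed by -3.9 points (-10.8 to 0.123, adjusted exact p = 0.16). With exons over 1000 nt, however, the difference was -14.0 points and passed (adjusted exact p = 0.019). Exons over 1000 nt make up 36.1% of the members' exonic bases and 50.9% of those of other coding genes. In Cfg3 the difference was -12.2 points (-27.9 to 0.137, adjusted exact p = 0.15). The 12 exonic Cfg3 peaks in exons up to 400 nt were in Cenpe, Cenpf, Cep83, Cep95, Cep152, Cep164, Cep250, Cep295 and Kif20b.

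**Figure D3:**
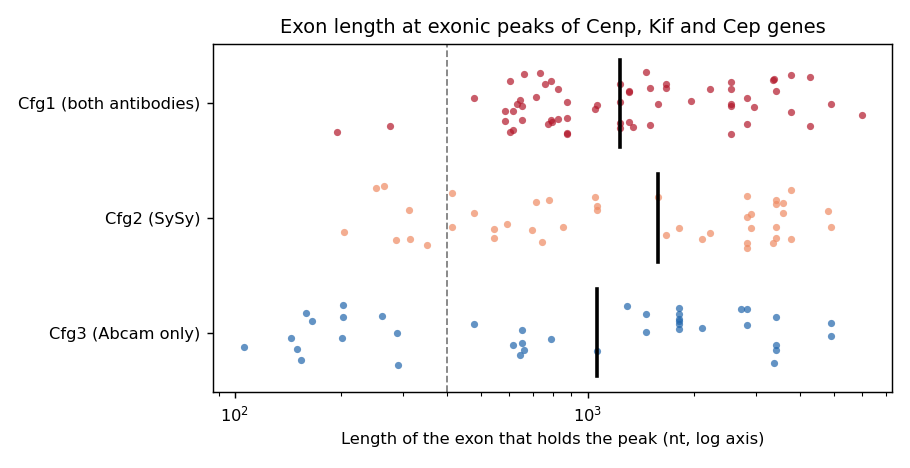
Length of the exon that holds each exonic peak of the members (x axis, nt, log axis), by list (y axis); each point is a peak, black bars are medians (1237 nt in Cfg1, 1582 nt in Cfg2, 1061 nt in Cfg3) and the dashed line marks 400 nt. Of 62 Cfg1 peaks 2 lie left of the line, against 12 of 39 Cfg3 peaks.

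The long exons in question were mostly internal. Of the 105 exonic SySy-called peaks, 69 were in internal exons (65.7%, 56.2% to 74.1%), 27 in last exons (25.7%) and 7 in first exons. In other coding genes internal exons held 31.7% (30.7% to 32.6%) and last exons 56.9%. The gene structures differ in the same direction: members average 19.4 exons against 9.6, and internal exons make up 62.3% of their exonic bases against 38.0%. Internal exons over 400 nt, 51 in number, are 13.5% of the members' exonic bases and held 63 of the 105 peaks, while in other coding genes they are 6.61% of bases and held 2475 of 8649 peaks. Sequence past the last coding base made up 27.1% of the members' exonic bases and 40.5% in other genes. In 3′UTRs lay 18.1% of the members' SySy-called exonic peaks and in coding sequence 77.1%, against 37.4% and 58.0% in other genes. How far gene structure sets these shares was not tested.

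Near stop codons the members had fewer peaks than other genes, without passing a test. Within 200 nt of the last coding base along the spliced transcript lay 17 of 105 SySy-called peaks (16.2%), against 23.9% in other coding genes, a difference of -7.7 points (95% interval -13.6 to 0.567, adjusted exact p = 0.15 over 8 tests). In Cfg3 these shares were 5.13% and 16.0% (adjusted exact p = 0.15). Between SySy-called and Cfg3 peaks of the members, the difference of 11.1 points did not pass at 200 nt (adjusted exact p = 0.16). At 400 nt it was 19 points and passed (adjusted exact p = 0.034). With 1 peak per gene in each group it was only 3.36 points at 200 nt and did not pass. The peak kept was the one nearest the 5′ end of the gene. Peaks at the stop codon were therefore dropped wherever the gene had a peak upstream, which by itself changes this share. The 17 peaks were in Cenpb, Cenpl, Cenpo, Cenps, Cep57, Cep57l1, Cep78, Cep85, Cep85l, Cep152, Cep162, Cep290, Kif13b and Kif14, with 2 each in Cep57, Cep85 and Cep162.

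All 5 SySy-called peaks in 5′UTRs, those of Cenpl, Cep44, Kif4, Kif5b and Kif11, belonged to Cfg2, where they were 11.6% of the exonic peaks. In other coding genes 5′UTR sequence held 7.25% of exonic Cfg2 peaks and 2.08% of exonic Cfg1 peaks. Antibodies to m6A also bind m6Am, a methylated base next to the cap, so for peaks close to a transcript start, such as those of Kif11 and Cep44 with midpoints 126 and 196 nt from the gene start, the 2 marks cannot be told apart.

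In introns the lists parted. Of the members' SySy-called peaks on the representative transcript, 13 of 118 were intronic (11%), against 33 of 72 Cfg3 peaks (45.8%), a difference of -34.8 points (95% interval -47.1 to -21.8, adjusted exact p = 1.2e-06). The intronic share was lower in Cfg1 (3 of 65, 4.62%) than in Cfg2 (10 of 53, 18.9%), by 14.3 points with an interval of the difference from -27.1 to -2.67 (adjusted exact p = 0.048). This call was lost with 1 peak per gene and list (adjusted exact p = 1) and with the longest transcript of each gene (adjusted exact p = 0.22). Between members and other coding genes the intronic share did not pass a test: the difference was 2.41 points in SySy-called peaks (-2.1 to 9.35, adjusted exact p = 0.33) and -12.0 points in Cfg3 (-23.1 to -0.513, adjusted exact p = 0.15).

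An intronic SySy-called peak was found in 8 members (8.42%, background 2.69%): Cep57l1, Cep68, Cep112, Cep192, Kif1b, Kif18a, Kif23 and Kif24. No Cenp gene was among them. Their 13 peaks had a median distance of 3446 nt from the 5′ splice site, and 4 of the 13 were exonic in another annotated transcript. In 4 of the 13 at least 50% of the interval was repeat-masked (30.8%, against 19.8% in other coding genes), 3 of them in Kif18a and 1 in Cep112. Of the members' 33 intronic Cfg3 peaks 13 were masked to that degree (39.4%, against 22.2%), and 7 of these were the peaks of Cenpp. Of the 33, 4 shared their intron with a SySy-called peak, and 21 of the 39 exonic Cfg3 peaks shared their exon with one. Among these 21 were 6 in exon 12 of Cep170, and 3 and 2 in exons 12 and 13 of Cenpf. Such sharing was not counted in other coding genes, so it cannot be called a trait of the members.

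**Figure D4:**
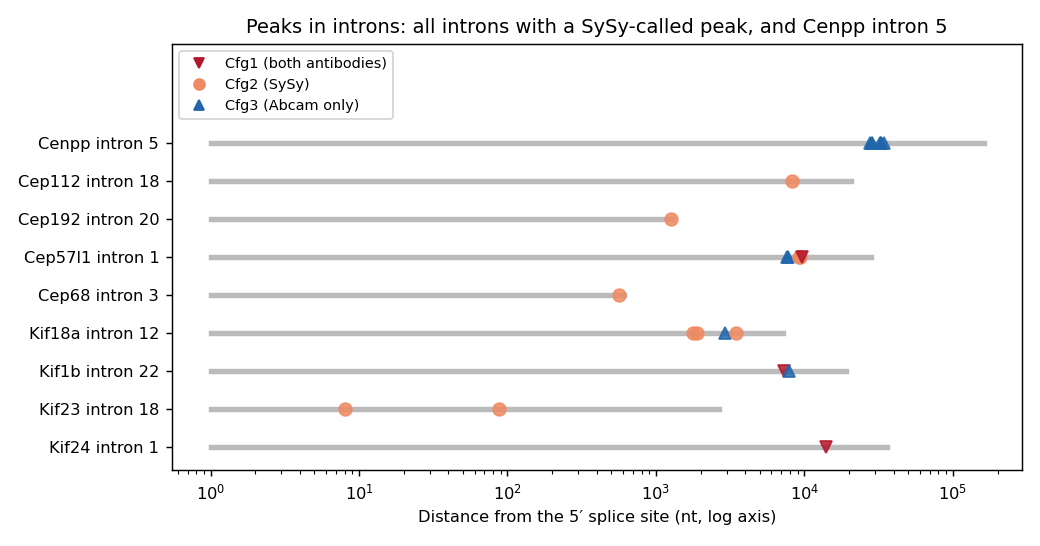
Peaks (symbols as labelled) along every intron of a member with a SySy-called peak and along intron 5 of Cenpp; the x axis is the distance from the 5′ splice site in nt on a log axis, and grey bars run to the end of each intron. Kif23 has peaks at 8 and 88 nt, all other introns drawn have theirs beyond 500 nt, and the Cenpp peaks sit between 27441 and 34145 nt of an intron of 161496 nt.

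No difference in the share with GGACT passed. GGACT was in 30.5% of SySy-called and 22.2% of Cfg3 peaks of the members, a difference of 8.29 points (-4.97 to 20.2, adjusted exact p = 0.32), and in 30.8% of Cfg1 and 30.2% of Cfg2 peaks (difference 0.581 points, -16.0 to 16.7, adjusted exact p = 1). Counting GGAC with any next base, the first difference was 20.9 points and passed (adjusted exact p = 0.015). With 1 peak per gene in each group, the GGACT difference between SySy-called and Cfg3 peaks was only 1.49 points and did not pass. Among all Cfg1 peaks of the members, with 1 outside the representative transcript counted in, 51 of 66 held GGAC, 30 of them without a GGACT. In other coding genes 3639 of 4836 Cfg1 peaks held GGAC, 1792 of them without a GGACT, a similar share. Against other coding genes the members differed by -4.4 points in SySy-called peaks (-12.0 to 4.46, adjusted exact p = 0.33) and by 5.18 points in Cfg3 (-2.94 to 16.1, adjusted exact p = 0.33).

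**Figure D5:**
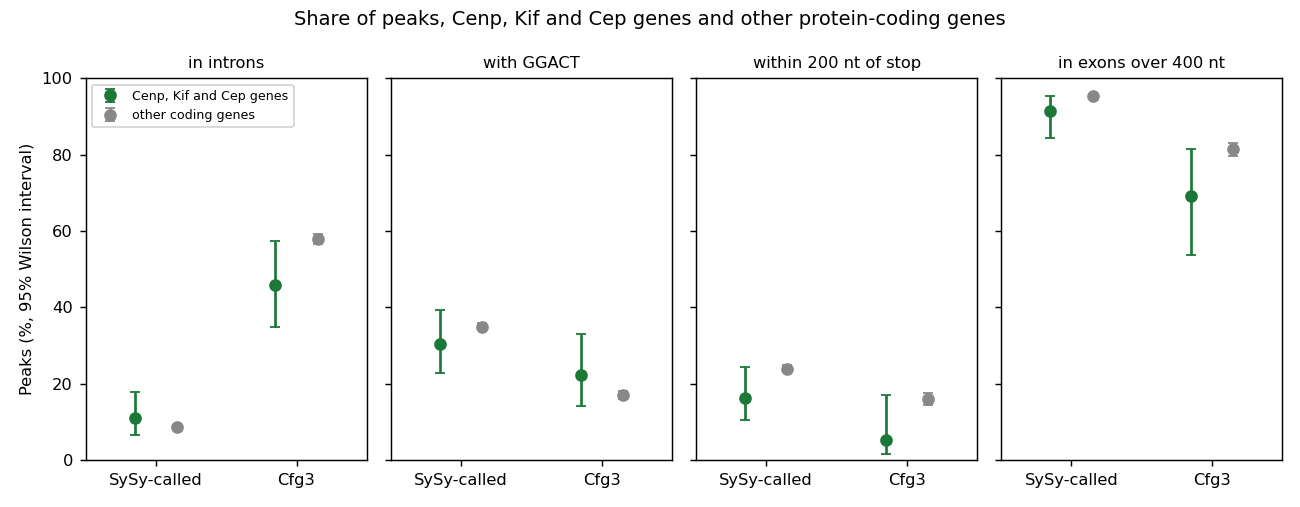
Share of peaks (y axis, %, with 95% Wilson intervals) in introns, with GGACT, within 200 nt of the stop codon and in exons over 400 nt, for SySy-called and Cfg3 peaks of the members (green) and of other protein-coding genes (grey). None of these 8 differences between members and other genes passed the adjusted test; the lowest adjusted exact p was 0.15.

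Other genes of the same machinery were listed by function, with earlier results of these data known. The genes named below are among the most marked of each list. A SySy-called peak was present in 13 of 31 other kinetochore and centromere genes (41.9%), among them Hjurp, the chaperone that loads CENP-A, with 4 Cfg1 and 2 Cfg2 peaks. It was present in 14 of 27 other centrosome genes (51.9%), among them Tubgcp6 with 7 Cfg1 and 2 Cfg2 peaks and Plk4, the kinase that starts centriole duplication, with 4 Cfg1 peaks. Of 32 other spindle and motor genes 14 carried one (43.8%), among them the spindle pole gene Aspm with 3 Cfg1 and 2 Cfg2 peaks. These shares stand beside 45.3% of the members and the background of 19.7%, and the differences were not tested.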

How the data were processed

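Peaks of m6A in chromatin-associated RNA of E14 cells were analysed as the authors deposited them, in 3 lists of stranded mm10 intervals. The study's methods name MACS2 2.1.1, as do the submitters' notes on processing. Both duplicates of an antibody entered 1 call against their input, and broad peaks were then cut between summits and trimmed. HOMER is also named in those notes, and the aligner is not given in the sources used here. The score in the deposited lists was 0 for every peak and was not used. In 1 Cfg2 entry the strand carried an extra character and was taken as plus.

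Midpoints were placed on GRCm38.p6 with the GENCODE release vM21, which predates the one the study used, on the transcript with the longest coding sequence. All 95 member transcripts spliced from the assembly matched the annotation's sequences. Where a peak lay in a member and another gene it was counted for the member. Sequences, and repeats as soft-masked bases, were read from RefSeq's copy of that assembly. Role groups follow general knowledge of the genes and were set after values were seen. Shares were compared by two-sided Fisher's exact tests in 2 families of 8, Benjamini-Hochberg adjusted at 0.05, with Wilson intervals, from which the interval of a difference was combined by Newcombe's method. Peaks, not libraries, are the unit, and p-values measure counting error alone. Depth per library is unknown.

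Values are given in full for members with at least 4 SySy-called peaks, at least 4 Cfg3 peaks or an intronic SySy-called peak. Of the members counted, 1 is not reported here by name. Sequences are given for coding Cfg1 peaks of Cep152, Cep250 and Cep350 and for the Kif23 peaks. The members and lists were chosen with earlier results of these data known. Placement and tests were tested on simulated data. Alternatives covered the transcript, shared spans, 1 peak per gene (that nearest the 5′ end), the motif, and the stop codon and exon windows. They also covered overlap in place of the midpoint and at least 2 peaks. Software was Python 3.11.15, numpy 2.4.6, scipy 1.17.1 and matplotlib 3.10.9.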

Additional observations from a re-analysis of the deposited data

How the results depend on the processing

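No paired analysis was possible because the lists hold no value per library. For the same reason no replicate could be left out, and a stricter calling threshold was not run since every score is 0. Of the tested differences, the larger intronic share of Cfg3 peaks kept its direction and its call in the alternatives run. The intronic share of Cfg1 less that of Cfg2 was -10.3 points with the longest transcript and -8.89 with 1 peak per gene and list, and no longer passed. The larger share of SySy-called than of Cfg3 peaks in long exons fell to 5.86 points with exons over 1000 nt, where Cfg1 less Cfg2 turned to -1.69. With the same limit the members' SySy-called peaks fell under those of other coding genes in share (-14.0, Fisher's exact test, adjusted p = 0.019). SySy-called less Cfg3 passed at 20.9 points for GGAC with any base, in intervals of unequal width, and at 19 points within 400 nt of the stop codon. These settings, and the limit of 1000 nt, were not combined with 1 peak per gene. With 1 peak per gene in each group, the one nearest the 5′ end, the contrast was 1.49 points for GGACT. Within 200 nt of the stop codon it was 3.36 points, and neither passed. Differences in GGACT that had not passed changed sign: Cfg1 less Cfg2 to -10.5 (1 peak per gene) and -1.45 (a fixed window around the midpoint), members less other genes in SySy-called peaks to 0.219 (fixed window) and 0.145 (any base), and in Cfg3 to -2.2 (any base). The cause was not tested. At least 2 peaks were found in 15 members for Cfg1, 12 for Cfg2, 14 for Cfg3 and 27 for SySy-called peaks. Counting the 1.49 and 3.36 points above, 63 values kept their direction and call, or lay within 1.5 times the count.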
